A study of Homo sapiens with 3 samples.

Results

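Immune checkpoint and co-stimulatory ligands are proteins that a tumour cell shows to, or makes for, the lymphocytes and phagocytes it meets. The 10 genes described here are defined by their symbols, with no threshold on a measured value, and all 10 were found among the 58381 genes of the count table. They were CD274 (PD-L1), PDCD1LG2 (PD-L2), CD276 (B7-H3), LGALS9 (galectin-9), PVR (CD155), NECTIN2 (CD112), CD47, CD58 (LFA-3), NT5E (CD73) and ICAM1. RNA-seq had been performed on T24 cells, a human bladder carcinoma line, in 3 conditions with 1 library each. Ctrl was the untreated library, whose treatment label reads Empty, RT was control cells exposed to ionising radiation, and RT + shHDAC6 was irradiated cells with knockdown of HDAC6, a mostly cytoplasmic deacetylase of tubulin and other proteins. The labels give a dose of 10 Gy in the treatment protocol of every library, Ctrl included. Ctrl is taken as untreated from its label Empty and from the paper. The labels also give a lentiviral shRNA against HDAC6, a control pLKO.1 vector and puromycin selection in the growth protocol of every library. The study's results, in contrast, call the irradiated comparator parental cells. There was no library of HDAC6 knockdown without irradiation, so an effect of the knockdown alone cannot be told apart from one that needs radiation. With 1 library per condition no difference has a replicate check, no test was possible and no p-value is given.

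In such cells the ligands fall into groups by what they engage. PD-L1 and PD-L2 bind PD-1 on T cells and restrain them, while B7-H3 belongs to the same B7 family but has no settled receptor. CD155 and CD112 engage the activating receptor DNAM-1 (gene CD226) and the inhibitory receptor TIGIT on T and NK cells. CD47 binds SIRP-alpha on phagocytes and holds back engulfment, CD73 is the ectoenzyme that makes adenosine from AMP, and CD58 and ICAM1 are adhesion ligands for CD2 and LFA-1 that help lymphocytes to bind and respond. Interferon-gamma, acting through JAK kinases and IRF1, is the classical inducer of PD-L1.

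The libraries held between 35424086 and 41811165 counts, and an observed count of 0 allows an expected count of up to 3, which amounted to 0.0718 to 0.0847 CPM (counts per one-millionth of a library). HDAC6 itself was counted 3098, 2383 and 2170 times in Ctrl, RT and RT + shHDAC6, which after scaling left the knockdown library at 87.5% of the irradiated control (95% interval of the log2 ratio -0.28 to -0.11). HDAC6 was thus not called lower, and its RNA in these libraries bears out the knockdown label only by this small difference. By other measurements, quantitative PCR and Western blotting, the paper reports reduced HDAC6 RNA and protein in its knockdown T24 cells. The defining markers of the line were mixed. KRT18, a keratin of simple epithelia, was read 7336, 8362 and 9048 times in these libraries, VIM, the mesenchymal intermediate filament, had 121716, 74147 and 95822, and the urothelial marker UPK2 had between 1 and 3. The library labelled RT + shHDAC6 was low in KRT7, a simple-epithelial keratin, with 3533, 3854 and 597 counts (log2 ratio to RT -2.75), and in GATA3, a urothelial transcription factor, with 2320, 1423 and 709 counts (-1.06). Other epithelial markers went the other way: KRT8, KRT19, EPCAM, CDH1 and KRT5 had log2 ratios to RT of 0.36, 0.39, 0.51, 0.24 and 0.37. KRT18 (0.056) and CD44 (-0.056) differed little between these libraries. The part of these markers in the results for that library was not tested. Of 20 markers of leukocytes and endothelial cells none was at 0 in all libraries, and their summed level was 41.3, 27.6 and 33.9 CPM.

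Before the values, the promoters of 3 ligand genes are shown, because CD274 and PVR had the highest ratios of RT to Ctrl and ICAM1 had the lowest of the ligand genes. The windows come from RefSeq on GRCh38.p14 and run from 250 bases before to 50 bases after a gene's start. Of the 10 genes, 9 matched an entry, and PDCD1LG2 had none. The windows are chr9:5450292-5450591 for CD274, chr19:44643660-44643959 for PVR and chr19:10270870-10271169 for ICAM1, all on the plus strand. Capitals mark matches, on either strand, to the IRF element (a pair of GAAA cores set 2 bases apart), the AP-1 site (TGANTCA), the hypoxia response core (ACGTG), the Sp1 box (GGGCGG) and the NF-kB consensus.
CD274: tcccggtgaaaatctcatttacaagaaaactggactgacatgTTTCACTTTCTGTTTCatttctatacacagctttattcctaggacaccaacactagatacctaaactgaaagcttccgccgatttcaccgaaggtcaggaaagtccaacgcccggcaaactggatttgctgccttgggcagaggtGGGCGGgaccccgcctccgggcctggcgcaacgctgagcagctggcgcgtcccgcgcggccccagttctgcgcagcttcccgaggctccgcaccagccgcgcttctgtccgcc
PVR: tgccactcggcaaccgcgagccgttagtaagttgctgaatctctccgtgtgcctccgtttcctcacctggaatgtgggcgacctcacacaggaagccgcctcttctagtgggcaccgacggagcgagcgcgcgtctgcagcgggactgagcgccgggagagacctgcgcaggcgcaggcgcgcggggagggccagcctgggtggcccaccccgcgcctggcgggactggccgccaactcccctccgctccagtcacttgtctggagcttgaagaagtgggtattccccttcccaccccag
ICAM1: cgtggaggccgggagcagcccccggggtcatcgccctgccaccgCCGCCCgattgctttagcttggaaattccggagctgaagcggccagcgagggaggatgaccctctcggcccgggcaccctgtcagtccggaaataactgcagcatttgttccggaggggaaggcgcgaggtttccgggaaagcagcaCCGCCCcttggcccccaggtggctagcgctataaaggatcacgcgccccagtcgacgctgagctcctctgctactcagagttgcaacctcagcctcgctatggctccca
In CD274 the first capitals are 2 overlapping IRF matches read on the minus strand, followed by an Sp1 box. PVR held no match to any of the 5 motifs, which says only that these letters are not in its window. ICAM1 held a pair of Sp1 boxes and no match to the other motifs named above. As for PVR, this says only that those letters are absent, and sites that differ from them were not searched for. Among the 9 genes with a window, an IRF match was found in 2 (CD274 and LGALS9; 3.57% of 35116 promoters hold one), a hypoxia response core in 2 (CD276 and CD47; 21.4%) and an NF-kB match in CD276 alone (11.3%). The Sp1 box was found in 7 of the 9 (45%) and an AP-1 site in 0 (7.71%). A match is a description of the letters and not evidence of a bound factor.

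The ligand genes differed widely in level. Levels between genes are given as RPKM, the CPM after TMM scaling divided by exon length in kilobases, with 95% Poisson intervals for counting error only. The intervals leave out the choice of exon length, on which the order of genes with close levels also depends. NT5E was the highest in each library, at 87.4 RPKM in Ctrl (interval 86.2 to 88.7), 133 in RT and 94.4 in RT + shHDAC6, which was 62.9%, 59.9% and 55.3% of the summed RPKM of the 10 genes. NECTIN2 was next at 21.9, 36.4 and 32.3 RPKM, and CD58 followed at 11.4, 18.3 and 14.4 RPKM. CD47 stood above PVR in Ctrl (7.37 against 4.98 RPKM) and below it in RT (10.6 against 13.4 RPKM), and in RT + shHDAC6 the intervals of the pair overlapped (9.49 and 10.0 RPKM). CD274 was sixth throughout, at 3.14, 7.83 and 6.99 RPKM, followed by CD276 at 1.72, 1.93 and 1.33 RPKM.

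The remaining ligand genes had few reads, between 26 and 96 in a library. PDCD1LG2 had 0.232, 0.555 and 1.14 RPKM, ICAM1 had 0.478, 0.270 and 0.502 RPKM, and LGALS9 had 0.209, 0.158 and 0.182 RPKM in Ctrl, RT and RT + shHDAC6. The intervals of PDCD1LG2 and LGALS9 overlapped in Ctrl, those of ICAM1 and LGALS9 overlapped in RT, and those of CD276 and PDCD1LG2 overlapped in RT + shHDAC6. The 20 leukocyte and endothelial markers, genes that a bladder carcinoma line is not known for, had medians of 0.263, 0.203 and 0.220 RPKM. They reached 2.49, 1.55 and 1.47 RPKM, so PDCD1LG2, ICAM1 and LGALS9 lay within the range of those markers in every library. CD276 lay within it in Ctrl and RT + shHDAC6 but not in RT.

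The first comparison, RT against Ctrl, asks what irradiation did to these genes. In RT, 6 of the 10 were called higher and 1 was called lower, where called means a difference of at least 1.5-fold with a counting interval that excludes 0. Among the 20527 genes that reached 10 counts in any library, 13.2% were called higher and 11.5% lower. The median log2 ratio of the ligand genes was 0.65 against -0.025 over all these genes. The choice of scaling weighed on this comparison: with library totals in place of TMM each log2 ratio was lower by 0.25 and with upper quartile factors by 0.18, and under both 3 of the 10 were called higher and 1 lower, beside 6.56% and 22.6% of all genes with library totals and 7.98% and 19.0% with upper quartile factors.

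The B7 ligands of PD-1 were both higher in RT. CD274 (ENSG00000120217, chromosome 9 from 5450503 to 5470566) was read 595 times in Ctrl, 1072 times in RT and 996 times in RT + shHDAC6. Both irradiated libraries were therefore high and Ctrl was low. RT was 2.49-fold above Ctrl (log2 ratio 1.32, 95% interval 1.17 to 1.47). Under the 4 scalings this value lay between 1.07 and 1.34, and 1.60% of genes with a mean of at least 100 counts had a higher ratio. PDCD1LG2 (ENSG00000197646), which begins 40.0 kb beyond the end of CD274 on the same strand, had 26, 45 and 96 counts. Its log2 ratio of RT to Ctrl was 1.26 (interval 0.53 to 2.02), an estimate as large as that of CD274 but resting on few reads. CD276 (ENSG00000103855, chromosome 15 from 73683966 to 73714514), the third gene of the family, had 435, 352 and 253 counts, and its ratio of RT to Ctrl (0.16, interval -0.043 to 0.37) was below 0 with library totals (-0.088) and upper quartile factors (-0.018).

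The nectin-like ligands of DNAM-1 and TIGIT were higher in RT by unequal amounts. PVR (ENSG00000073008, chromosome 19 from 44643798 to 44666162) was read 2397 times in Ctrl, 4639 times in RT and 3615 times in RT + shHDAC6. Its log2 ratio of RT to Ctrl, 1.42 (interval 1.35 to 1.49), was the highest of the 10, and 1.05% of genes with a mean of at least 100 counts lay above it. NECTIN2 (ENSG00000130202, chromosome 19 from 44846175 to 44889223), 180.0 kb further along the chromosome, had 3786, 4533 and 4195 counts and a log2 ratio of 0.73 (interval 0.67 to 0.79), which was 0.48 with library totals. Within a library the ratio of the pair needs no scaling: there were 0.633 PVR reads per NECTIN2 read in Ctrl (interval 0.601 to 0.667), 1.02 in RT (interval 0.982 to 1.07) and 0.862 in RT + shHDAC6 (interval 0.824 to 0.901). PVR thereby gained on NECTIN2 in RT by 0.69 on the log2 scale (interval 0.60 to 0.79). These within-library ratios were chosen after the counts had been seen. In the annotation, 20.6% of PVR's exon length is shared with CEACAM19 and an unnamed gene on the same strand, which had 66 to 99 and 223 to 264 counts.

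Of the other well-expressed ligands, CD58 and NT5E were called higher in RT and CD47 was not. CD58 (ENSG00000116815, chromosome 1 from 116514534 to 116571039) had 938, 1086 and 888 counts and a log2 ratio of RT to Ctrl of 0.68 (interval 0.55 to 0.81). NT5E (ENSG00000135318, chromosome 6 from 85449584 to 85495791) had 18281, 20152 and 14828 counts and a ratio of 0.61 (interval 0.58 to 0.64), just past the 1.5-fold line at 0.58. CD47 (ENSG00000196776, chromosome 3 from 108043091 to 108091862) had 2800, 2896 and 2709 counts and a ratio of 0.52 (interval 0.44 to 0.59). The raw counts of this gene were thus close to each other in the 3 libraries, and its ratio reflects the smaller RT library and the scaling. With library totals the ratios of CD58, NT5E and CD47 were 0.43, 0.36 and 0.27, above 0 but under 1.5-fold.

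ICAM1 and LGALS9, the weakly expressed adhesion ligand and galectin, had ratios of the opposite sign. ICAM1 (ENSG00000090339, chromosome 19 from 10271093 to 10286615) was read 76 times in Ctrl, 31 times in RT and 60 times in RT + shHDAC6. RT was the low library, at 56.5% of Ctrl, a log2 ratio of -0.82 (interval -1.48 to -0.20). LGALS9 (ENSG00000168961, chromosome 17 from 27629798 to 27649560), a lectin proposed as a ligand of TIM-3, had 55, 30 and 36 counts and a ratio of -0.41 (interval -1.10 to 0.26), so that no difference was detectable at this depth. Its near-identical copies LGALS9B and LGALS9C had 0 counts in all libraries, and reads shared among the copies could have been left out by the counting. Of ICAM1's exon length, 25.4% overlaps genes on the other strand, which had 0 to 9 counts.

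Other weakly expressed genes had low ratios in the same comparison. Genes with a mean of 10 to under 100 counts had a median log2 ratio of -0.30 for RT against Ctrl, and 19.2% of them were called lower, whereas genes with a mean of at least 100 counts had a median of 0.11, with 17.7% called higher and 7.04% lower. The summed reads of the 20 leukocyte and endothelial markers stood at -0.58 (interval -0.70 to -0.47) on the log2 scale in RT relative to Ctrl, and at 0.29 (interval 0.17 to 0.42) in RT + shHDAC6 relative to RT. Their part in the values of ICAM1 and LGALS9 was not tested. PDCD1LG2, of similar depth, went the other way: 2.99% of genes with a mean of 10 to under 100 counts had a higher ratio of RT to Ctrl, while 20.2% had a lower ratio than ICAM1. Of the 7 ligand genes with a mean of at least 100 counts, 5 were called higher in RT and 0 lower.

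**Figure D1:**
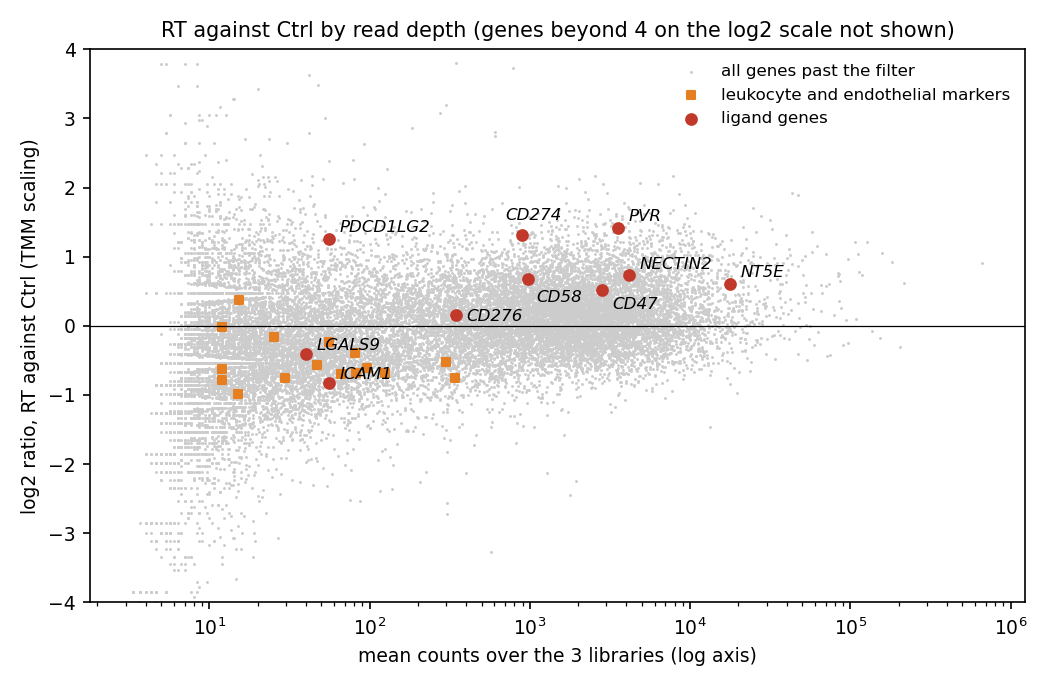
Log2 ratio of RT to Ctrl (TMM scaling) against the mean counts over the 3 libraries (log axis) for the genes past the filter on low counts (grey), the leukocyte and endothelial markers among them (orange squares) and the 10 ligand genes (red). PVR and CD274 lie near the upper edge of genes of their depth, while ICAM1 (-0.82) and LGALS9 (-0.41) lie among the markers.

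The second comparison, RT + shHDAC6 against RT, sets the library labelled as HDAC6 knockdown against the irradiated control. HDAC6 RNA itself differed little between them (log2 ratio -0.19, not called), so directions here are those of the labelled library. None of the 10 ligand genes was called lower and 2, PDCD1LG2 and ICAM1, were called higher, beside 6.17% of all genes lower and 4.85% higher (5.07% and 6.26% with library totals). The 7 genes with a mean of at least 100 counts all had log2 ratios below 0 under each of the 4 scalings, between -0.53 and -0.15 with TMM. All 7 intervals were below 0 with TMM and 5 of them with library totals, where those of CD274 and CD47 reached 0. Among the 12113 genes of that depth, 3903 had an interval below 0. The differences were therefore small, and none reached 1.5-fold.

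CD276 and NT5E were lowest relative to RT. CD276 in RT + shHDAC6 was at 69.1% of its RT level, with a log2 ratio of -0.53 (interval -0.77 to -0.30). It was also under Ctrl (log2 ratio -0.37, interval -0.60 to -0.14). NT5E was at 70.7% of RT, a log2 ratio of -0.50 (interval -0.53 to -0.47), with 6.99% of genes with a mean of at least 100 counts lower than it. Against Ctrl, NT5E in RT + shHDAC6 had a ratio of 0.11 (interval 0.078 to 0.14), which was -0.063 with library totals and -0.044 with upper quartile factors, so the order of these libraries turned with the scaling. PVR was at 74.9% of RT (log2 ratio -0.42, interval -0.48 to -0.35) and CD58 at 78.6% (log2 ratio -0.35, interval -0.48 to -0.22).

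CD274, NECTIN2 and CD47 differed least between the irradiated libraries. They stood at 89.3%, 88.9% and 89.9% of RT, with log2 ratios of -0.16 (interval -0.29 to -0.038), -0.17 (interval -0.23 to -0.11) and -0.15 (interval -0.23 to -0.078). Many genes of that depth had lower ratios than these (27.5% for CD274, 26.9% for NECTIN2 and 28.7% for CD47), close to the 24.4% below HDAC6 itself.

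PDCD1LG2 and ICAM1 were the ligand genes called higher in this comparison. Among genes with a mean of 10 to under 100 counts, 8.44% were called higher, and 7.49% had a higher ratio than PDCD1LG2 and 10.1% a higher ratio than ICAM1. PDCD1LG2 with 26, 45 and 96 counts was lowest in Ctrl and highest in RT + shHDAC6, where it was 2.05-fold above RT (log2 ratio 1.04, interval 0.51 to 1.58) and 4.91-fold above Ctrl (log2 ratio 2.30, interval 1.66 to 2.98). For RT + shHDAC6 relative to Ctrl, 0.587% of genes with a mean of 10 to under 100 counts had a higher ratio. The balance of the PD-1 ligands differed accordingly: there were 22.9 CD274 reads per PDCD1LG2 read in Ctrl (interval 15.5 to 35.3), 23.8 in RT (interval 17.7 to 32.9) and 10.4 in RT + shHDAC6 (interval 8.41 to 12.9). ICAM1 in RT + shHDAC6 was 1.86-fold above RT (log2 ratio 0.90, interval 0.25 to 1.57) and not distinguishable from Ctrl (log2 ratio 0.071, interval -0.44 to 0.58; -0.10 with library totals). LGALS9 had a ratio of 0.21 (interval -0.53 to 0.95) to RT.

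The last comparison sets RT + shHDAC6 against Ctrl and shares its libraries with the other two. CD274, PDCD1LG2 and PVR were called higher, 3 of the 10, and 0 were called lower, beside 12.6% and 12.7% of all genes (7.64% and 18.6% with library totals). The log2 ratio was 1.16 for CD274 (interval 1.01 to 1.30) and 1.0 for PVR (interval 0.93 to 1.08), so both remained about 2-fold above Ctrl (2.23-fold and 2.01-fold). NECTIN2 had a ratio of 0.56, CD47 of 0.36 and CD58 of 0.33, all with intervals above 0 under the 4 scalings.

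Some other genes shared the pattern of CD274 over the 3 libraries. By Euclidean distance between log2 levels centred on their mean, the nearest genes among 12106 with a mean of at least 100 counts were RMDN3 (1166, 2086 and 1950 counts), AUP1 (3918, 7040 and 6483 counts) and SLC52A2 (1765, 3124 and 2905 counts). In all, 82 of these genes (0.677%) lay within the counting intervals of CD274 in both of the first comparisons.

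Other ligands of the same kind were examined through a list of 35 genes, of which 27 passed the filter on low counts. In RT, 5 were called higher and 4 lower than in Ctrl, with a median log2 ratio of -0.12. These are 18.5% and 14.8% of the list, near the 13.2% and 11.5% of all genes, and 2 and 7 were called with library totals. TNFSF9 (4-1BB ligand), a co-stimulator of T cells, had 67, 116 and 139 counts and a ratio of RT to Ctrl of 1.26. BTN2A1, a butyrophilin sensed by gamma-delta T cells, had a ratio of 0.90. NCR3LG1 (B7-H6), a ligand of the NK receptor NKp30, had 2292, 2954 and 3971 counts and a ratio of 0.84, at the 1.5-fold line with library totals (0.58, not called), and was 1.20 above Ctrl on the log2 scale in RT + shHDAC6. LGALS1 (galectin-1), which restrains T cells, was the lowest of those with a mean of at least 100 counts, with 10210, 4159 and 5574 counts and a ratio of -0.83.

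Between RT + shHDAC6 and RT, 1 gene of that list was called higher and 4 lower. These are 3.7% and 14.8% of its genes past the filter, beside 4.85% and 6.17% of all genes. The higher gene, CD200 (35, 13 and 28 counts), had few reads. So had the lower genes CD70 (43, 40 and 16 counts) and VCAM1 (44, 29 and 13 counts). Among genes with a mean of 10 to under 100 counts, 8.44% were called higher and 8.42% lower. BTN3A1, the butyrophilin that presents phosphoantigen to gamma-delta T cells, had 1581, 1205 and 778 counts and a ratio of -0.69. Its relative BTN3A3 had 563, 587 and 382 counts and a ratio of -0.68. The B7 genes CD80, HHLA2 and ICOSLG did not pass the filter, with at most 7 counts in a library, and CD86 had 28, 10 and 12 counts. VTCN1 (B7-H4), an inhibitor of T cells, had 125, 52 and 65 counts and was called lower in RT than in Ctrl (log2 ratio -0.80).

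Among 27 regulators of PD-L1 and CD47, 6 were called higher and 0 lower in RT than in Ctrl (3 and 1 with library totals), with a median of 0.14. The 22.2% called higher compares with 13.2% of all genes and with 20.3% of genes with a mean of at least 1000 counts, the depth of most of this list. EGFR, which can raise PD-L1, had a ratio of 1.03, STT3A, an oligosaccharyltransferase subunit that glycosylates PD-L1, of 1.02, SOCS3, a feedback inhibitor of JAK signalling, of 0.93, and IFNGR1, a chain of the interferon-gamma receptor, of 0.79. IRF1 had 679, 751 and 665 counts and a ratio of 0.61. With library totals IFNGR1 (0.53) and IRF1 (0.36) were not called. In RT + shHDAC6 against RT, 0 were called higher and 1 lower (3.7% of the list), beside 4.85% and 6.17% of all genes. The gene called lower was QPCTL, the glutaminyl cyclase that modifies CD47 for binding to SIRP-alpha, with 1640, 1773 and 1197 counts. Its ratio was -0.62, which was -0.55 and not called with library totals. CMTM6, which stabilises PD-L1 at the cell surface, had 8572, 7709 and 6286 counts and was not called in any of the 3 comparisons.

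In the adenosine pathway around NT5E, 13 of 14 genes passed the filter, and 2 were called higher and 2 lower in RT than in Ctrl (15.4% each, near the 13.2% and 11.5% of all genes), or 1 and 3 with library totals. SLC29A1, the nucleoside transporter that clears adenosine, had 4269, 8495 and 7291 counts and a ratio of 1.46. The adenosine receptor ADORA2B had 1480, 1796 and 2006 counts and a ratio of 0.75, which was 0.50 with library totals. ENTPD1 (CD39), which supplies AMP to CD73, was weakly expressed at 56, 25 and 43 counts. In RT + shHDAC6, ENPP1, an ectoenzyme that also makes AMP, had 527 counts against 1303 in RT and 1238 in Ctrl, a ratio of -1.36 to RT (interval -1.51 to -1.22). NT5E and ENPP1 were thus both lower in RT + shHDAC6 than in RT, ENPP1 past 1.5-fold and NT5E not. Of the 13 genes, 1 was called higher and 1 lower than in RT (7.69% each, beside 4.85% and 6.17% of all genes). The gene called higher was ADORA2A, with 36, 35 and 63 counts and a ratio of 0.79 (interval 0.17 to 1.43). The median ratio of the list was 0.10, with 8 ratios above 0 and 5 below.

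Of 15 genes for receptors and other binding partners of these ligands, 12 passed the filter. In RT, 4 were called higher and 2 lower than in Ctrl (1 and 2 with library totals). These are 33.3% and 16.7% of the 12, beside 13.2% and 11.5% of all genes (6.56% and 22.6% with library totals). PDCD1 (PD-1) had 1 to 3 counts, TIGIT 4 to 10, PVRIG 0 to 2 and CD2 8 to 19. CD226, the receptor of PVR and NECTIN2, had 50, 64 and 66 counts and was called higher in RT than in Ctrl (log2 ratio 0.83, and 0.57 and not called with library totals). HAVCR2 (TIM-3), with 35, 10 and 22 counts, and CD96, another receptor of PVR, with 17, 3 and 9, were called lower. Genes of this list with a mean of at least 100 counts included CD44, THBS1 and RGMB, which tumour cells themselves express. They were called higher in RT than in Ctrl (log2 ratios 1.07, 0.81 and 0.66), although THBS1 (0.55) and RGMB (0.41) were not called with library totals. Between RT + shHDAC6 and RT, 3 genes of this list were called higher and 1 lower. These are 25% and 8.33% of the 12, beside 4.85% and 6.17% of all genes. In RT + shHDAC6, ITGB2, the beta chain of LFA-1 and Mac-1, had 288 counts against 85 in RT and 100 in Ctrl, a ratio of 1.70 to RT (interval 1.35 to 2.07). SIRPA, the receptor of CD47, had 405 counts against 136 and 188, a ratio of 1.52 (interval 1.23 to 1.81). ITGAM, the alpha chain of Mac-1, had 29, 21 and 51 counts and a ratio to RT of 1.22, also called higher. RGMB, with 7181, 8210 and 5615 counts, was the gene called lower than in RT (ratio -0.61, and -0.53 and not called with library totals). Of the 16 leukocyte and endothelial markers past the filter, 13 had ratios to RT above 0, with a median of 0.27 and 1 called higher, and PTPRC, the pan-leukocyte marker, had 120, 66 and 57 counts (ratio -0.27). The part of these markers in the values of ITGB2, SIRPA and ITGAM was not tested. In bulk RNA fewer expressing cells and less RNA per cell cannot be told apart.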

How the data were processed

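Per the paper's methods and the labels, the authors removed adaptors (cutadapt), mapped the reads to GRCh38 (STAR, version 2.6.1a in the labels and another in the paper) and assigned them to GENCODE 28 genes (featureCounts). The deposited values are raw read counts without normalisation. Strand setting, treatment of multi-mapping reads and the time between irradiation and harvest are not given in the sources used here, and the library kit differs between the labels and the paper.

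Symbols and GRCh38 positions came from GENCODE 44 (57754 of 58381 identifiers matched). Counts were scaled with TMM (edgeR 4.0.16, R 4.3.3) over genes with at least 10 counts in any library. A count of 0 was set to 0.5. Log2 ratios carry 95% Clopper-Pearson intervals (scipy 1.17.1), which cover counting error only, since each condition had 1 library. Differences between cultures or preparations are not in them. PCR copies of a molecule cannot be recognised here, so the intervals may be too narrow even for counting error. RPKM used the union of GENCODE 44 exons. The fold rule stands in for a test: NOISeq, used in the study, was not run, and the edgeR and DESeq2 tests need replicates. The procedure was tested on simulated data. Genes named from the lists were up to 4 per list and comparison, those with the largest ratios among called genes with a mean of at least 100 counts; others named were chosen after their values were seen. The 10 ligand genes, the lists, motifs and thresholds were chosen with earlier results of these data known. Protein sequences were not analysed here. One motif and one gene named in the planned lists are not reported here by name.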

Additional observations from a re-analysis of the deposited data

How the results depend on the processing

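For RT against Ctrl, the 6 ligand genes called higher became 3 with library totals, 3 with upper quartile factors and 3 with a 2-fold line, and the 1 called lower (ICAM1) became 0 with a 2-fold line and 0 among genes with a mean of at least 100 counts. For RT + shHDAC6 against RT, the 2 called higher became 1 with a 2-fold line and 0 among genes with a mean of at least 100 counts, and the 0 called lower became 4 with the lower fold line tried. For RT + shHDAC6 against Ctrl, the lower fold line tried gave 6 higher and 1 lower in place of 3 and 0. Median-of-ratios factors (DESeq2 1.42.0), no filter and a count of 0 set to 1 left these counts within 1.5 times of the main ones. The share of all genes called at the 2-fold line and at the lower fold line is not given here. Member counts at those lines therefore cannot be read against all genes. Of 120 recomputed ratios of the 10 genes, 91 stayed within the counting interval, 29 moved beyond it and 0 called ratios changed sign. Over all genes, the share of higher among called genes for RT against Ctrl was 53.4%, against 22.5% with library totals and 29.6% with upper quartile factors; for RT + shHDAC6 against RT it was 44%, against 55.2% with library totals, and for RT + shHDAC6 against Ctrl it was 49.9%, against 29.1% and 31.4%. Counts of the 4 related lists moved by over 1.5 times in 48 of 192 recomputations. No paired analysis was possible because each condition had 1 library. The depth limits PDCD1LG2, ICAM1 and LGALS9, whose intervals span more than 1 on the log2 scale.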
